A study of Mus musculus with 5 samples.

Results

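The mitochondrial ribosomal protein genes were taken from the deposited gene table by their symbols, as protein_coding genes whose name starts with Mrpl or Mrps and a number. The rule gave 78 genes of 55487, which were 49 genes of the large subunit (Mrpl) and 29 of the small subunit (Mrps), and no measured value was used to choose them. They were followed across 5 RNAseq libraries of macrophages from the aortas of male mice, sorted as viable cells by CD45 and F4/80 in the labels and also by CD11b (the product of Itgam) in the study's methods. The 2 libraries labelled WT came from Zeb1 WT/Apoe KO mice, which carry floxed Zeb1 alleles and lack Apoe. The 3 libraries labelled KO came from Zeb1 ∆M/Apoe KO mice, in which Cre expressed from the Lyz2 (LysM) locus deletes Zeb1 in myeloid cells, so the deletion is not limited to macrophages and depends on Lyz2 being active. Apoe was deleted in both genotypes, and all the mice were fed chow for 8 weeks and a Western diet for the next 10 weeks, to an age of 18 weeks. By the mouse names in the study's methods the lines were on a C57BL/6 background. Macrophages of 3 mice were mixed, and the study calls its replicates biologically independent without saying how mixing and libraries went together, and the labels name no animals, so p-values measure only the spread between these libraries. The libraries are called WT1, WT2, KO1, KO2 and KO3 below, and their expected read counts were the measurement.

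Mitochondria carry their own ribosome, which is built from rRNAs of the mitochondrial genome and from proteins that are encoded in the nucleus, made in the cytosol and imported. It translates the few mRNAs of the mitochondrial genome, which encode core subunits of the respiratory chain complexes and of ATP synthase. Most of its proteins have a single copy in each ribosome, and the genes are scattered over the genome and counted among the housekeeping genes. In macrophages the respiratory chain supplies ATP for functions such as uptake and processing of lipids, and its use shifts with activation.

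KO1 stood apart from the other libraries over all genes. It had at least 1 count for 20919 genes, where the other 4 libraries had between 7395 and 10689, but more than 100 counts for only 864 genes, where the others had between 1713 and 4419. Total counts were 20118545 in WT1, 34596110 in WT2, 24372265 in KO1, 35771785 in KO2 and 50649912 in KO3. A value of 3 counts or fewer was taken as the floor, which is 0.0592 to 0.149 CPM (counts scaled by the library total), and floors cover counting error only, since reads copied by PCR are not independent molecules. Zeb1 had 0, 0, 22, 0 and 0 counts in WT1, WT2, KO1, KO2 and KO3, so it did not check the genotype labels, and Lyz2 had between 161607 and 869804. Of the 10 macrophage markers, between 6 and 9 were above the floor in each library, Mertk was at 0 in the 4 libraries other than KO1, Itgam was at 0 in KO1, Cd68 and C1qa were at 0 in WT1, and Fcgr1 was at 0 in WT1 and KO3. Smooth muscle and B cell markers were at 0 in those 4 libraries. Summed T cell markers ranged from 1.44 CPM in KO1 to 1519 CPM in WT2, summed neutrophil markers from 138 in KO3 to 3150 in WT1, and summed fibroblast markers from 0 to 531, the last in KO2, where Dcn had 19005 counts. Endothelial markers summed to between 0.168 and 72.3 CPM and adipocyte markers to at most 0.164 CPM. The part of such cells in the results below was not tested, and in bulk libraries fewer cells of a type and less RNA per cell cannot be told apart.

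The start regions of the members are shown first because the same sequence motifs recur in them. Of the 78 members, 69 had at least 1 promoter window in RefSeq (GRCm38.p6), each of 300 bases that reach from 250 before to 50 after a transcription start site, and these members had 75 windows. The 5 windows below belong to the member with the most counts per kilobase in each subunit (Mrpl33 and Mrps21), to 2 members whose KO libraries all lay below the WT libraries (Mrps18a and Mrpl35), and to a member that starts next to another highly counted gene (Mrpl49). The capitals mark the ETS motif CCGGAAG or the YY1 motif AAGATGGC, read on either strand, so that CTTCCGG is the ETS motif on the other strand.
Mrpl33: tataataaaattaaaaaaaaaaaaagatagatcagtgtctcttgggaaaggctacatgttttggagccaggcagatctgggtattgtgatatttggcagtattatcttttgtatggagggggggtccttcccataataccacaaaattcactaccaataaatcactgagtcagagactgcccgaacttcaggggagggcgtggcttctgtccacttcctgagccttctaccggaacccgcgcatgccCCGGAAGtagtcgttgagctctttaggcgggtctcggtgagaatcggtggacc
Mrps21: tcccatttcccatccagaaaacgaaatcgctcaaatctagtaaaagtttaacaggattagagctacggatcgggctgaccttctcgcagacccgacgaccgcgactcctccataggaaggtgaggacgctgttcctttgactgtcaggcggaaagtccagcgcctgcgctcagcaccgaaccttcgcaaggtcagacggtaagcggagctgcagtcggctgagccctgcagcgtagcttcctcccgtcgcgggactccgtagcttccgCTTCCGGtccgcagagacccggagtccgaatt
Mrps18a: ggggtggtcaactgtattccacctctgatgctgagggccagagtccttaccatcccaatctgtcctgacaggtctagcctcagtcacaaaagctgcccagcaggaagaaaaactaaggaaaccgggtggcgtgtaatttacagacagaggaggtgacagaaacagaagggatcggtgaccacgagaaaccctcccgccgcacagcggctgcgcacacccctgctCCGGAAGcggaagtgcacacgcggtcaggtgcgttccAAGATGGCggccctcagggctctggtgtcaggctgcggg
Mrpl35: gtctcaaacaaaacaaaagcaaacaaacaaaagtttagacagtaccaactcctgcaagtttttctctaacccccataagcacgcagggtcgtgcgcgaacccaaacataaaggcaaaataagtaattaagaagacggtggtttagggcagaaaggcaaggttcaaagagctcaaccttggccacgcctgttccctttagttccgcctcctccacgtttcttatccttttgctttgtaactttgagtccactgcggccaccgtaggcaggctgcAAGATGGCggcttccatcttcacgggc
Mrpl49: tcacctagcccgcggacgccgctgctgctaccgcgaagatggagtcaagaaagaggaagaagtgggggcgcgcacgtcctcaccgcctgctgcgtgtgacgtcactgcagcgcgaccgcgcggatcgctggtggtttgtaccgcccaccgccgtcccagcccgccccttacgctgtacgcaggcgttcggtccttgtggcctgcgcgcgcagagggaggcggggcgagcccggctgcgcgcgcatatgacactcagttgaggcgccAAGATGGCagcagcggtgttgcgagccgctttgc
These windows lie on GRCm38.p6 at chr5:31613701-31614000 (plus strand) for Mrpl33, chr3:95871465-95871764 (minus) for Mrps21, chr17:46110754-46111053 (plus) for Mrps18a, chr6:71823735-71824034 (minus) for Mrpl35 and chr19:6057706-6058005 (minus) for Mrpl49. In GENCODE M21, which uses GRCm38, the windows of Mrpl33 and Mrpl35 lie inside the span of the gene rather than at its outer end.

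The ETS motif, bound by a family of factors that includes GABP, was present in 26 of the 75 member windows (34.7%), against 8.86% of all 32851 windows of the same length. The YY1 motif, which holds an ATG and in Mrpl35, Mrpl49 and Mrps18a lies just after the start site, was in 12 member windows (16.0%) against 2.75%. An NRF1 core, GCATGCGC, was in 8 member windows (10.7%) against 2.71%. The GC-rich SP1 core GGGCGG was in 52.0% of member windows and 35.7% of all windows, CCAAT in 40.0% and 37.4%, and the TATA box TATAAA in 6.67% and 13.6%. Member windows had a median GC content of 58.7%, all windows 52.7%, and the part of base composition in these shares was not tested. Either ETS or YY1 was found in 35 member windows (46.7%, against 11.2%), and both in the windows of 3 members, Mrps12, Mrps18a and Mrps27 (3 of 75 windows, against 0.411% of all). A match says only that these letters stand in the window, not that a factor binds there. Members with the ETS motif were above 100 counts in a mean of 2.08 libraries (26 members) and those without in 1.74 (43 members), with a median of 2 in both.

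**Figure D1:**
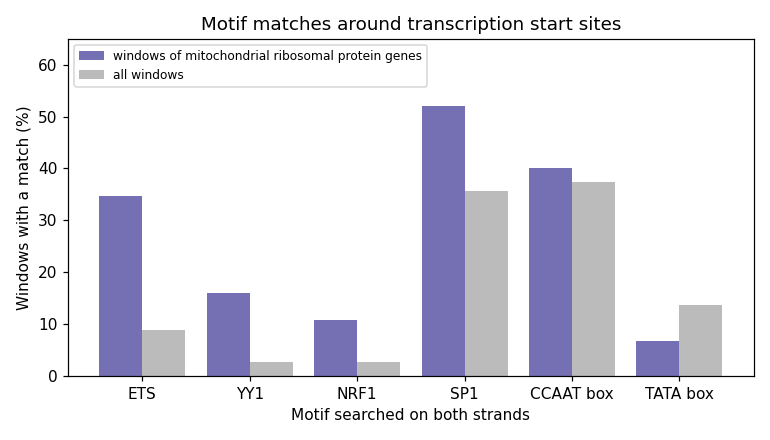
Share of promoter windows (%, y axis) with a match to each motif (x axis, both strands), for the 75 windows of mitochondrial ribosomal protein genes (purple) and all 32851 windows (grey). ETS matches stood at 34.7% against 8.86%, YY1 at 16.0% against 2.75% and NRF1 at 10.7% against 2.71%, while the shares for the CCAAT box were 40.0% and 37.4%.

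Most members were present in some libraries and missing from others. Of the 78, 68 (87.2%) were above 100 counts in at least 1 library, but 1 member alone, Mrpl33, was above 100 counts in all 5, and 10 (12.8%) were above the floor of 3 counts in all 5. Over all protein_coding genes, 30.0% were above 100 counts in some library and 4.34% above the floor in every library. The 86 genes of the cytosolic ribosome, the most similar set, had 81.4% above the floor in every library and 61.6% above 100 counts in every library. Members above 100 counts numbered 19 in WT1, 46 in WT2, 4 in KO1, 40 in KO2 and 38 in KO3, and cytosolic ribosomal protein genes 75, 77, 60, 82 and 81. The mitochondrial set therefore had fewer genes above 100 counts than the cytosolic set in each library, although it was more often above 100 counts than protein_coding genes at large, whose shares were 7.09%, 18.6%, 3.40%, 13.3% and 17.3% against 24.4%, 59.0%, 5.13%, 51.3% and 48.7% of the members.

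Values of a member were mostly near 0 or over 1000. Of the 390 values of 78 members in 5 libraries, 150 were 0, 27 were 1 to 3, 66 were 4 to 100, 16 were above 100 and up to 1000 and 131 were over 1000. KO1 held 35 of the values from 4 to 100. Without KO1, 9.94% of the remaining 312 values were from 4 to 100 and 41.0% were over 1000. WT1, the shallowest library, had 39 members at 0, and WT2, KO2 and KO3 had 26, 31 and 28. In KO1, 26 members were at 0 and 35 (44.9%) had 4 to 100 counts, a class that held 48.0% of protein_coding genes in that library.

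**Figure D2:**
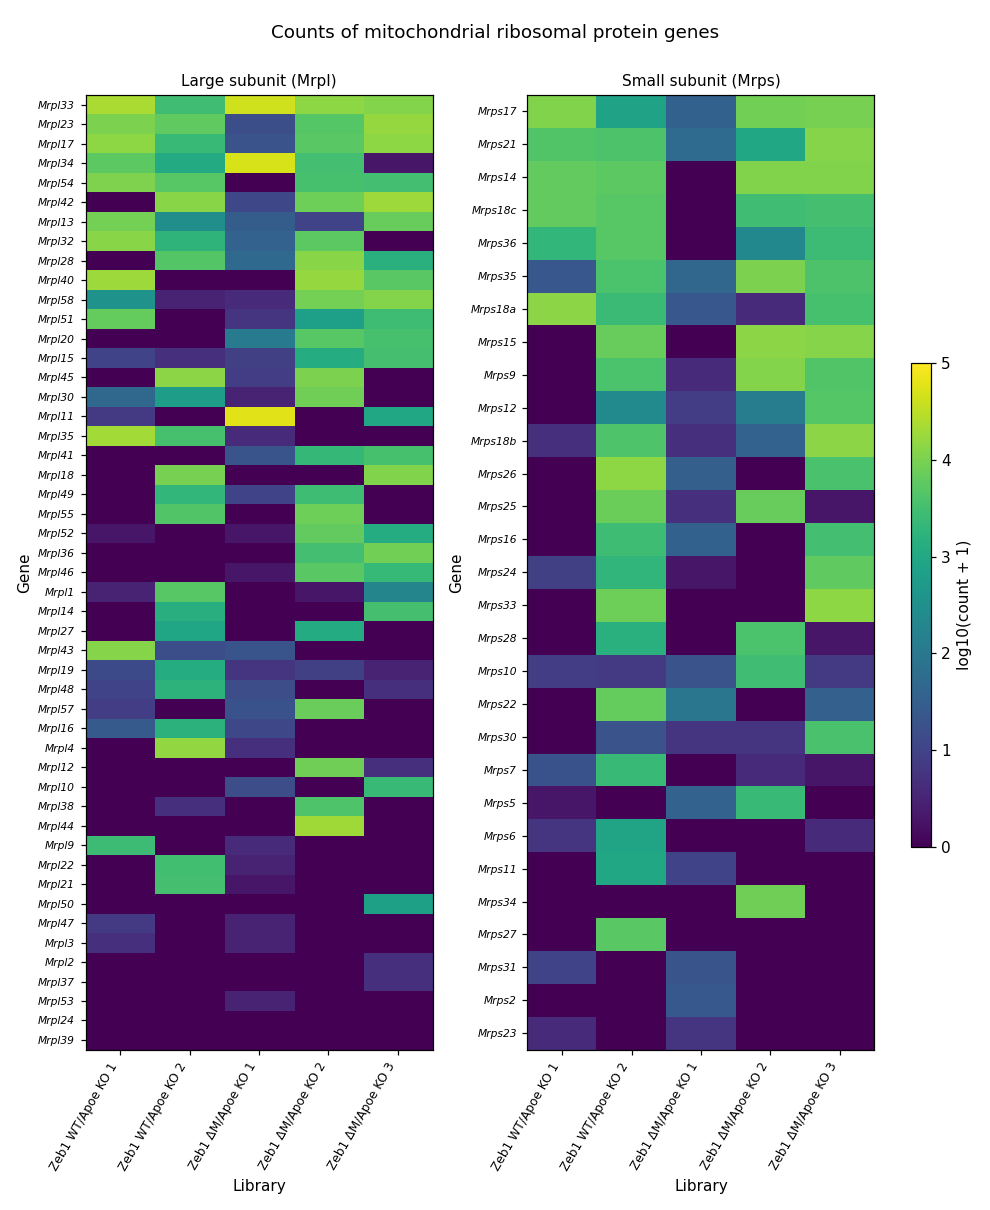
Counts of each member (rows, large subunit left, small subunit right) in each library (columns), coloured by log10(count + 1) and ordered by the number of libraries above 100 counts. Mrpl33 at the top of the large subunit was above 100 counts in all 5 libraries, and Mrpl24 and Mrpl39 at the bottom were at 0 in all 5. The KO1 column is dark for the small subunit and for most of the large subunit.

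**Figure D3:**
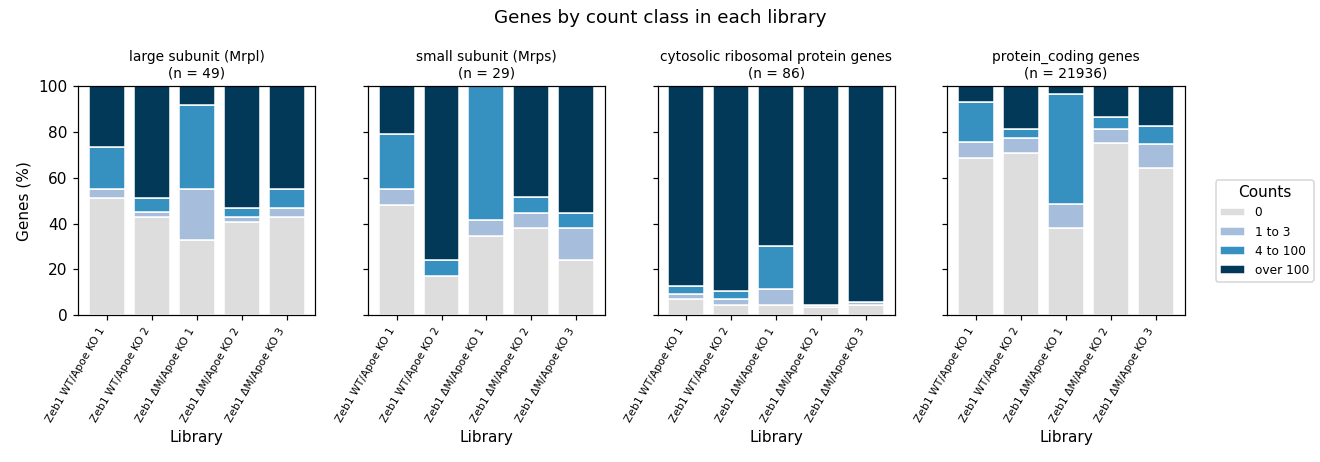
Share of genes (%, y axis) with 0, 1 to 3, 4 to 100 and over 100 counts in each library (x axis), for the 49 large subunit genes, the 29 small subunit genes, the 86 cytosolic ribosomal protein genes and all 21936 protein_coding genes. The share over 100 counts was higher in the cytosolic set than in either mitochondrial subunit in each library, and no small subunit gene reached it in KO1.

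The 10 members above the floor in every library were Mrpl13, Mrpl15, Mrpl17, Mrpl23, Mrpl33, Mrps10, Mrps17, Mrps18b, Mrps21 and Mrps35. Mrpl33 had 23165 counts in WT1, 2962 in WT2, 43451 in KO1, 14172 in KO2 and 12051 in KO3. Mrps21 had 4483, 3951, 55, 981 and 12532 in the same order, Mrps17 had 11054, 755, 35, 8681 and 9377, and Mrpl17 had 14048, 2385, 18, 5294 and 13851. These 3 were above 100 counts in 4 libraries and below it in KO1. Mrpl23 had 10350, 6005, 15, 4789 and 16463 counts, and its processed pseudogene Mrpl23-ps1 had 656, 368, 0, 153 and 869, so reads may have been shared between the copies and the values of Mrpl23 are uncertain. Mrpl13 had 9151, 300, 29, 9 and 6924, Mrpl15 had 9, 4, 8, 1229 and 3307, Mrps35 had 22, 3897, 43, 10247 and 3978, and Mrps10 had 7, 6, 18, 2927 and 6. Mrpl15, Mrps10 and Mrps35 were below 100 counts in libraries of both genotypes, and Mrpl13 in KO1 and KO2. The number of members above the floor in every library was 14 without KO1, 14 without WT1, 13 without KO3, 12 without KO2 and 11 without WT2.

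At the other end, Mrpl24 and Mrpl39 were at 0 in all 5 libraries and Mrpl53 had 2 counts in KO1 and 0 elsewhere. Mrpl2, Mrpl3, Mrpl37, Mrpl47 and Mrps23 had at most 6 counts in any library. Mrpl24, Mrpl39 and Mrpl53 were not detectable in these libraries, which does not show that they were not expressed, and the other 5 passed the floor in 1 library each. A further 23 members were above 100 counts in a single library, of which 11 were in WT2, 7 in KO2, 3 in KO3, 2 in WT1 and none in KO1. Mrpl44, for example, had 19376 counts in KO2 and 0 in the other 4, and Mrps27 had 5227 counts in WT2 and 0 in the other 4. Another 22 members were above 100 in 2 libraries, 13 in 3 and 9 in 4.

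Libraries were also set beside each other by the members that both had above 100 counts. KO2 and KO3 shared 24 members above 100 counts, which was 60.0% of those in KO2 and 63.2% of those in KO3. WT2 and KO3, of different genotypes, shared 25 (54.3% and 65.8%), and WT2 and KO2 shared 24 (52.2% and 60.0%). WT1 and WT2 shared 14 (73.7% and 30.4%), and WT1 shared as many with KO2 (14, 73.7% and 35.0%) and with KO3 (14, 73.7% and 36.8%). KO1, with 4 such members, shared 3 with KO2 (75.0% and 7.50%) and 3 with KO3 (75.0% and 7.89%), and 2 with WT1 (50% of those in KO1 and 10.5% of those in WT1) and 2 with WT2 (50% and 4.35%). For the cytosolic ribosomal protein genes, KO2 and KO3 shared 81 (98.8% and 100%). These overlaps are given as a description, without a test.

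Levels between genes were compared as CPM of total counts per kilobase of the longest principal transcript in GENCODE M21, whose median length was 1302 bases for the members and 2569 for protein_coding genes. Mrpl33, a small protein of the large subunit, had the highest mean at 1529 ± 1499 CPM per kilobase (SD, n = 5). The next in the large subunit were Mrpl34 at 815 ± 1471, Mrpl23 at 332 ± 284, Mrpl42 at 289 ± 278 and Mrpl54 at 281 ± 358. Mrpl34 had 5400, 1141, 50715, 3215 and 1 counts, so its place rests on KO1. Mrpl42 had 0, 12850, 11, 8048 and 18510, and Mrpl54 had 10957, 5011, 0, 3469 and 3185. In the small subunit the order was Mrps21 at 252 ± 227, Mrps18c at 189 ± 184, Mrps18a at 186 ± 327, Mrps15 at 178 ± 178 and Mrps33 at 90.3 ± 125 CPM per kilobase. Mrps15 had 0, 6909, 0, 13810 and 12554 counts, and Mrps33 had 0, 7780, 0, 0 and 13920. The SDs were near or above the means, so no neighbours in either order differed beyond their spread. Without WT1 the mean fell to 41.1 for Mrps18a, below Mrps15 (222) and Mrps33 (113), to 126 for Mrpl54 and to 115 for Mrps18c, and without KO1 it fell to 161 for Mrpl34 and to 979 for Mrpl33. Without KO3 it fell to 50.8 for Mrps33. Among members above 100 counts, the highest level per kilobase was between 129 and 643 times the lowest within a library. Members above 100 counts in 4 libraries had a median transcript length of 692 bases (9 members), and those above 100 in none had 1506 (10 members).

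Several members have roles or names that differ from the plain one. Mrps18a, Mrps18b and Mrps18c are paralogues of which Mrps18a is placed in the large subunit by structure despite its name. Mrps18a had 13633, 2602, 22, 3 and 3497 counts, Mrps18b had 4, 4242, 4, 36 and 13469, and Mrps18c had 6222, 5010, 0, 2958 and 3302. WT2 and KO3 were the libraries with more than 100 counts of all 3 paralogues. Mrps30, also a large subunit protein by structure, had 0, 18, 5, 5 and 3733 counts. Mrpl12, a protein of the flexible stalk that binds translation factors, had 0, 0, 0, 8218 and 4. Mrpl58, a peptidyl-tRNA hydrolase that became part of the ribosome, had 353, 2, 3, 9130 and 11644. Mrps36, which is now known as a subunit of the alpha-ketoglutarate dehydrogenase complex, had 2056, 5010, 0, 214 and 2645, and was the member of these 4 found in both genotypes at over 1000 counts.

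Summed over members, the large and small subunits lay far apart in KO1, where the large sum rested on Mrpl11, Mrpl34 and Mrpl33. The small subunit members took 0.218% of all counts in WT1, 0.270% in WT2, 0.00183% in KO1, 0.236% in KO2 and 0.223% in KO3. The large subunit members took 0.726%, 0.302%, 0.631%, 0.490% and 0.263% in the same order. In KO1 all 29 small subunit genes together had 446 counts, with Mrps22 highest at 91, while the large subunit had 153834, of which Mrpl11 (59247), Mrpl34 (50715) and Mrpl33 (43451) made up 99.7%. The ratio of the large to the small sum was 345 in KO1 and between 1.12 and 3.32 in the other 4 libraries. The ratio in KO1 describes those 3 genes and not the subunits as sets, since 58.6% of small and 44.9% of large subunit members were above the floor there. The sums go by gene name, so Mrps18a and Mrps30 were counted in the small subunit, and Mrps18a made up 31.0% of the small sum in WT1. The member with the most counts differed between libraries in both subunits. It was Mrpl33 in WT1 (15.9% of the large subunit sum), Mrpl4 in WT2 (14.7%), Mrpl11 in KO1 (38.5%), Mrpl44 in KO2 (11.1%) and Mrpl42 in KO3 (13.9%). Of these, Mrpl4 and Mrpl44 were above 100 counts in no other library.

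After TMM normalisation, which corrects for differences in composition, the large subunit sum was 4159 ± 1597 CPM (SD, n = 2) in WT and 6483 ± 5427 CPM (SD, n = 3) in KO, a log2 ratio of 0.64. It was −0.30 without KO1 and −0.15 with CPM of total counts, so its direction rested on KO1 and on the scaling. The small subunit sum was 2152 ± 794 CPM in WT and 1420 ± 1205 CPM in KO, a log2 ratio of −0.60, and −0.03 without KO1. In both subunits the genotypes differed by less than the spread within KO. Cytosolic ribosomal protein genes summed to 30598 ± 17109 CPM in WT and 65619 ± 66967 CPM in KO, where KO1 had 142944, KO2 27467 and KO3 26446, so the higher KO mean rested on KO1.

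**Figure D4:**
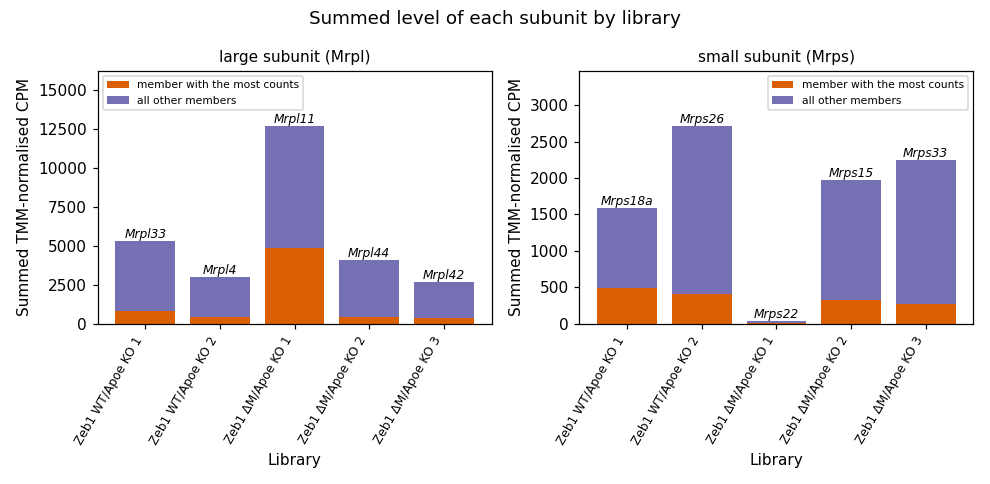
Summed TMM-normalised CPM of the large subunit (left) and small subunit (right) in each library, with the part of the member with the most counts in orange and its name above the bar. KO1 had the highest large subunit sum (12694 CPM) and the lowest small subunit sum (36.8 CPM), and the small subunit sums of the other 4 libraries lay between 1591 and 2713 CPM.

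The comparison of the genotypes asks whether loss of Zeb1 in myeloid cells goes with a different level of these genes in plaque macrophages. No member was called by edgeR. Of the 78, 58 passed the filter on low counts (34 large and 24 small subunit genes). The edgeR quasi-likelihood test with Benjamini-Hochberg adjustment called 0 of the 58 members and 0 of all 7905 genes tested (0%), with 2 members and 86 genes at an unadjusted p under 0.05. Those 2 were Mrpl35 and Mrpl11, the second named after its values were seen. DESeq2 called 8 of the 43 members that it gave an adjusted p (18.6%), against 790 of 6519 genes (12.1%). The median log2 fold change of KO over WT was −0.26 over the 58 members, of which 26 were positive and 32 negative, and 0.78 over all genes tested, 60.9% of which were positive. With upper-quartile normalisation the medians were 0.21 and 0.29, so the members had no direction that held under both scalings.

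In 12 of the 58 members (20.7%) the libraries of the 2 genotypes did not overlap, against 887 of all genes tested (11.2%). In 5 members (8.62%, against 6.68%) every KO library was above every WT library, and in 7 (12.1%, against 4.54%) every KO library was below. The share depended on KO1, on the scaling and on the filter. Without KO1 it was 18 of 54 members (33.3%) against 29.8% of all genes tested, and with upper-quartile normalisation 9 members (15.5%) against 10.9%. With no filter beyond 1 count in total it was 15.8% of 76 members against 5.36%. The 5 members with KO above WT belonged to the large subunit, and of the 7 with KO below WT 3 were large and 4 small subunit genes by name.

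Mrpl20, Mrpl46, Mrpl41 and Mrpl52, all large subunit proteins, were at or near 0 in WT and over 1000 counts in KO2 and KO3. Mrpl20 had 0 and 0 counts in WT and 108, 4973 and 3548 in KO1, KO2 and KO3, at least 601-fold higher in KO on the TMM scale, where 3 counts were 0.109 CPM in WT1 (log2 fold change 14.09, standard error 8.58). Mrpl46 had 0 and 0 against 1, 5333 and 2273, at least 522-fold higher (13.89, standard error 8.47), and its exons overlap those of Mrps11 on the other strand. Mrpl41 had 0 and 0 against 19, 2112 and 3440, at least 366-fold higher (13.38, standard error 8.15). KO1 lay between WT and the other KO libraries for Mrpl20 and Mrpl41. The 19 counts of Mrpl41 in KO1 lie in the class of 4 to 100 counts, which held 48.0% of protein_coding genes in that library, so they do not stand out there. For Mrpl46 KO1 had 1 count, at the floor as was WT, so its lack of overlap rested on that count. Mrpl52 had 1 and 0 against 1, 6278 and 1263, at least 528-fold higher (11.38, standard error 8.15). Mrpl15 had 9 and 4 against 8, 1229 and 3307 counts, a log2 fold change of 7.14 (standard error 6.60), and of 1.94 with upper-quartile scaling. With each library left out in turn, an alternative added after seeing the data, the lowest bounds on the TMM scale were 366-fold for Mrpl20, 209-fold for Mrpl46 and 116-fold for Mrpl52, all without KO2, and 235-fold for Mrpl41 without KO3. With CPM of total counts and the same libraries left out they were 250, 151, 83.7 and 201-fold. With CPM of total counts the bounds on all libraries were 477, 434 and 448-fold for Mrpl20, Mrpl46 and Mrpl52 and 286-fold for Mrpl41. In Mrpl52 and Mrpl15 the count in KO1 was within the WT counts, and by CPM of total counts KO1 was below WT1, so the lack of overlap in these 2 members depended on the TMM factors.

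Of the members with KO below WT, Mrpl35 had the largest log2 fold change. Mrpl35 had 19828 and 3441 counts in WT and 3, 0 and 0 in KO, at least 1652-fold higher in WT (log2 fold change −12.31, standard error 6.05). Mrps7, a protein of the head of the small subunit, had 17 and 2298 against 0, 3 and 1, at least 136-fold higher in WT (−9.88, standard error 5.97), and its exons overlap those of Gga3 and Mif4gd on the other strand. Mrpl19 had 12 and 1235 against 5, 8 and 2 (−6.41, standard error 4.88), and its exons overlap those of Gcfc2. Mrpl35 was high in both WT libraries, whereas Mrps7 and Mrpl19 were high in WT2 alone, without which their log2 fold changes were −4.15 and −1.38 and the bound for Mrps7 was 2.49-fold. The bound for Mrpl35 was 403-fold without WT1, and its log2 fold change lay between −17.21 and −10.55 with each library left out. Mrps18a had 13633 and 2602 counts in WT and 22, 3 and 3497 in KO (−3.58, standard error 4.56), and Mrps36 had 2056 and 5010 against 0, 214 and 2645 (−2.52, standard error 4.91). The genotypes were barely apart for Mrps18a, at 75.5 TMM-normalised CPM in WT2 and 69.6 in KO3, and KO3 was likewise nearest to WT for Mrps36, at 52.6 against 74.4 in WT1. They were also barely apart for Mrpl19, at 0.434 in WT1 and 0.413 in KO1, from 12 and 5 counts. Mrpl54 and Mrps18c, with the counts given above, were over 1000 in all libraries but KO1, where both were at 0.

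The edgeR quasi-likelihood test with Benjamini-Hochberg adjustment gave an adjusted p of 1 for each of these 12 members, and an exact permutation test on log2 CPM (two-sided, 10 assignments of 2 and 3 libraries) gave p between 0.1, the smallest it allows, and 0.3. The 12 members were picked for lack of overlap in the same values, so low values of the permutation test were built in and are no support. Mrpl20, Mrpl41, Mrpl46 and Mrpl52 also passed the filter on low counts only through KO libraries, and Mrpl35 only through WT libraries. Under DESeq2 with Benjamini-Hochberg adjustment, adjusted p was 0.00324 for Mrpl20, 0.00832 for Mrpl41, 0.00929 for Mrpl46, 0.0226 for Mrpl52, 0.0154 for Mrpl35 and 0.0370 for Mrps7. The other 2 members it called overlapped between the genotypes or tied. Mrpl36 had 0 and 0 counts in WT and 0, 3232 and 8689 in KO (DESeq2 adjusted p = 0.0245). Mrps27 had an adjusted p of 2.19e-08 under DESeq2 although its 5227 counts were in WT2 and it was at 0 in WT1 as in all KO libraries, so that call rests on a single library. Mrpl11 had 6 and 0 counts in WT and 59247, 0 and 997 in KO, so its KO counts were mostly those of KO1.

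**Figure D5:**
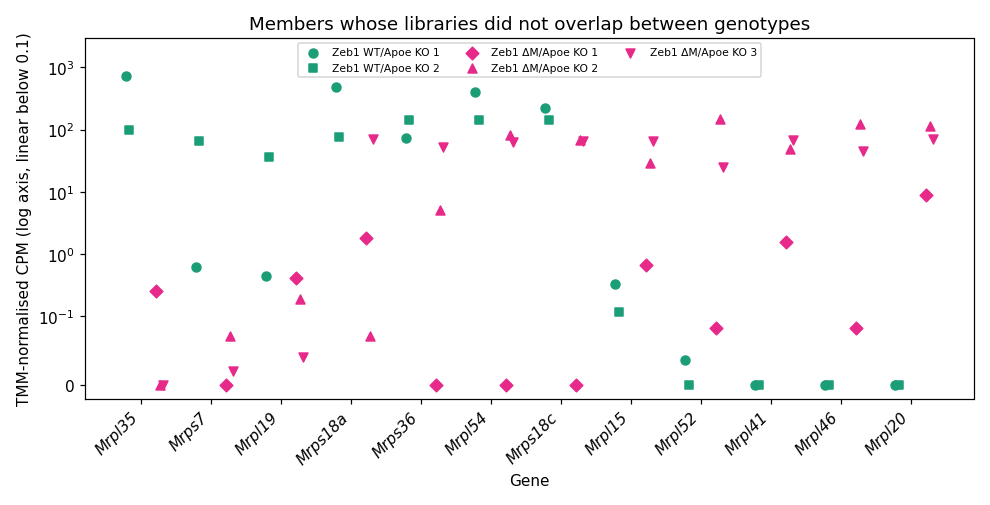
TMM-normalised CPM (y axis, log scale, linear below 0.1) of the 12 members whose libraries did not overlap between the genotypes, each point a library (WT green, KO pink). KO2 and KO3 lay above WT for the 5 members at the right, with KO1 closer to WT, and Mrpl35 at the left was the member with both WT libraries high and all KO libraries at 3 counts or fewer.

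Many members start close to another gene on the opposite strand, and their values were set beside those of the neighbour. In GENCODE M21, 32 pairs had start sites within 1000 bases on opposite strands, from 26 bases apart for Mrpl54 and Apba3 to 935 for Mrpl41 and Pnpla7. Of the 160 pair values over 5 libraries, both genes were above 100 counts in 14, the member alone in 40, the neighbour alone in 15 and neither in 91. Mrpl49, whose window is shown above, starts 59 bases from Fau, which encodes a fusion of a ubiquitin-like protein and the cytosolic ribosomal protein S30. Fau had 21110, 21157, 33073, 23042 and 24471 counts in WT1, WT2, KO1, KO2 and KO3, and Mrpl49 had 0, 2010, 9, 2794 and 0. Fau was thus high in every library and Mrpl49 in 2 of 5. Mrpl32 and Psma2, a proteasome subunit, were both above 100 counts in 3 libraries, with 13145, 1806, 36, 5517 and 0 counts for Mrpl32 and 181, 10029, 11, 26863 and 16710 for Psma2. Mrpl46 and Mrps11 are both members, and in GENCODE M21 their start sites are 412 bases apart, with overlapping spans and exons. By the RefSeq windows of both genes the start sites diverge without overlap, so the shared stretch depends on the annotation. Mrps11 had 973 counts in WT2, where Mrpl46 was at 0, and 0 counts in KO2 and KO3, where Mrpl46 was over 1000. The kit does not mark the strand, so reads from the shared stretch cannot be told apart, and 33 of the 78 members share exon sequence with another annotated gene.

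The lists of other genes of mitochondrial translation were small and gave few tested genes. Of the 6 mitoribosomal proteins with other names, Aurkaip1 was above the floor in every library (8873, 4330, 32, 9480 and 2630 counts), Chchd1 had 0, 5543, 5, 5127 and 6635, and Dap3 was at 0 or 1. None of the 3 tested was called by edgeR or DESeq2, and their median log2 fold change was 0.06. Of 26 assembly factors, 9 were tested and edgeR called 0, with 3 positive and 6 negative log2 fold changes and a median of −1.01. The genes named next from the lists of assembly and translation factors were the tested ones without overlap between the genotypes. Mterf3, which acts in assembly of the large subunit, had 0, 3, 8, 5312 and 5807 counts. Of 14 translation factors, 4 were tested and edgeR called 0, with a median of 7.93. The elongation factor Tsfm had 0, 0, 1, 272 and 65 counts and the ribosome recycling factor Gfm2 had 0, 7, 5, 27 and 1318. Tufm, the partner of Tsfm that brings tRNAs to the ribosome, was at 0 in all 5 libraries. Of 20 mitochondrial tRNA ligases 7 were tested and of 7 genes of mitochondrial transcription 1 was tested, with medians of 2.79 and 1.03, 0 called by edgeR and 0 at an unadjusted p under 0.05 in any of these lists, while DESeq2 called 2 of the 5 assembly factors and 1 of the 8 ligases that it gave an adjusted p, beside 12.1% of all genes. Of the 86 cytosolic ribosomal protein genes 82 were tested, edgeR called 0 and DESeq2 called 1 of the 68 with an adjusted p. Among these 82, 10 had every KO library above WT and 4 every KO library below, beside 6.68% and 4.54% of all genes tested. Their median log2 fold change was 1.08, beside 0.78 over all genes tested.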

How the data were processed

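The members and the gene lists were chosen with earlier results of these data known. The authors mapped paired-end reads of SMART-Seq v4 libraries to GRCm38 with STAR 2.5.3a, quantified genes with RSEM 1.3.0 and a GENCODE annotation, and deposited expected counts as whole numbers, without normalisation or filter. Deposited totals were 20118545 to 50649912 counts per library. Counts were tested with edgeR 4.0.16 (R 4.3.3), by the quasi-likelihood test on genotype alone with TMM factors (1.42, 1.06, 0.515, 1.25 and 1.03 for WT1, WT2, KO1, KO2 and KO3) and filterByExpr (minimum count 10), and Benjamini-Hochberg adjustment over 7905 genes at a threshold of 0.05. DESeq2 1.42.0 was an alternative. The scripts were tested on simulated data. Where all libraries of a genotype were at or under 3 counts, the fold was computed against 3 counts, as the highest CPM floor of that genotype, and is a lower bound. Single genes were compared by a two-sided exact permutation test on log2 CPM with a pseudocount of 2. Other alternatives were RLE and upper-quartile scaling, 2 other filters, a replicate block, each library left out and a threshold of 0.1. Transcript lengths and neighbours came from GENCODE M21, and promoter windows from RefSeq (GRCm38.p6). Cytosolic ribosomal protein genes were taken by symbol, without the Rps6k kinases and Rps19bp1. The named members were those above 3 counts in every library or at 3 or fewer in every library, the 5 per subunit with the most counts per kilobase, those without overlap between genotypes, the Mrps18 paralogues, Mrps30, Mrpl12, Mrpl58 and Mrps36. Others were named after their values were seen. Figures used Python 3.11.15 and matplotlib 3.10.9.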

Additional observations from a re-analysis of the deposited data

How the results depend on the processing

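DESeq2 called 790 genes and 8 members where edgeR called 0 of each. The edgeR counts stayed at 0 under RLE and upper-quartile scaling, both other filters, a threshold of 0.1, the replicate block and with each library left out. Among the members without overlap, no log2 fold change of the 5 with the largest change in each direction turned its sign under the alternatives that could be fitted. They were chosen for lack of overlap in these same data, so leaving out a library could hardly turn a sign, and the kept signs are no support. The values below are those of these log2 fold changes. Their sizes moved, under upper-quartile scaling from 11.38 to 6.43 for Mrpl52, from 7.14 to 1.94 for Mrpl15, from −6.41 to −2.94 for Mrpl19, from −3.58 to −8.81 for Mrps18a and from −2.52 to −7.10 for Mrps36. The replicate block gave 4.45 for Mrpl15, −3.82 for Mrpl19, −9.03 for Mrps18a and −8.47 for Mrps36. Without KO3, Mrps18a was at −8.03 and Mrps36 at −5.46, and without WT1 Mrps18a was at −1.54. Members without overlap between the genotypes numbered 12, and 10 with RLE factors (17.2%, against 10.9% of all genes tested), 9 with upper-quartile scaling (15.5% against 10.9%), 0 with at least 10 counts in every library, where 6 members were tested and 16.9% of all genes did not overlap, and 15 to 30 with each library left out. The shares were 30.6% against 22.2% without KO2 and 33.3% against 21.6% without KO3. The highest of these were 29 without WT1 and 30 without WT2, where a single WT library remained and was assumed to vary like the KO libraries. Over all genes tested the matching shares were 30.7% and 24.6%, against 42.0% and 46.9% of members. With no filter beyond 1 count in total, 12 of 76 members (15.8%) did not overlap, against 5.36% of all genes tested. In 3 of them KO was above WT and in 9 below. Members above the floor in every library numbered 10, 6 with a floor of at least 10 counts and 14 with at least 1 count. WT and KO share the replicate numbers 1 and 2, which mark no stated pairing. With the replicate block, edgeR called 0 genes, 7 were at an unadjusted p under 0.05, and 12 members did not overlap. The correlation of the replicate differences of the 2 genotypes was 0.173 across 7905 genes, which are not independent. The all-gene median log2 fold change was 0.78 with TMM, 1.24 with RLE and 0.29 with upper-quartile scaling. DESeq2 alone put 6 of these 10 members past the threshold. Values at 3 counts or fewer limit what these libraries can show.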
